A study of Arabidopsis thaliana with 30 samples.

Results

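The 26S proteasome degrades proteins that carry chains of ubiquitin. Its 20S core is a barrel of outer rings of alpha subunits, encoded by the PA genes, and inner rings of beta subunits, encoded by the PB genes, and the peptide bonds are cut inside the beta rings. The 19S particle caps the barrel. Its ring of ATPases, the RPT proteins, unfolds substrates and opens the alpha ring, and its non-ATPase subunits, the RPN proteins, hold the particle together, bind ubiquitin chains and remove them. In seeds the proteasome is known for removing repressors of gibberellin signalling and regulators of the abscisic acid response, both of which hold back germination.

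The genes described here are the 45 proteasome subunit genes of a list of locus identifiers, of 27827 genes in the table. They were 13 genes of the alpha class, 11 of the beta class, 10 of the 19S ATPase class and 11 of the 19S non-ATPase class. Each was found in the table by its locus, and 44 of them were tested. Of the members, 36 are given by the symbol of the RefSeq gene table (RPN5A and RPN6 by a synonym there) and 9 by their locus alone, counted in the class in which the list places them.

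The data come from 30 Affymetrix Gene ST arrays. They cover Arabidopsis thaliana Col-0 in 10 groups of 3 replicates, polysomal and total mRNA of dry seeds and of seeds or seedlings sampled 6, 26, 48 and 72 h after imbibition began (HAI). All groups carry the same wild-type genotype and were after-ripened, so that the seeds had lost dormancy, and imbibed seeds were kept on wet paper in continuous light. Polysomal mRNA came from the gradient fractions that hold mRNAs with several ribosomes, and total mRNA from the unfractionated extract, although the labels name total RNA as the molecule of both. A replicate was a bulk of plants, the labels do not tie the growth blocks to arrays, and the whole seed or seedling was extracted, so fewer cells with an mRNA and less of it per cell cannot be told apart.

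All levels are RMA values on the log2 scale, and all changes are differences on that scale. RMA makes the arrays equal in their probe signals, so a change common to all mRNAs is removed, and the levels of different genes are not compared here. Testing was limited to the 17061 genes with a level above 4, taken as the noise level, in all 3 replicates of at least 1 group. Each comparison comes from a limma fit over all 30 arrays with a Benjamini-Hochberg adjustment over the 17061 genes. A gene is called upregulated or downregulated where its adjusted p was below 0.05 and its change exceeded 1 in size, a 2-fold difference. Replicate arrays correlated at 0.965 to 0.991 over all genes, and no array repeated another. The array medians over all genes lay between 3.53 and 4.15, close to the noise level of 4, and setting them equal moved some of the results below. The group means of the median over the genes tested lay between 5.33 and 5.60. Which scaling is right was not settled.

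Stage markers were checked on all arrays. The 5 seed storage and maturation genes checked, among them the cruciferin genes CRA1 and CRU3, were all above noise in dry seeds, with a mean level of 11.1 in polysomal and 11.4 in total mRNA, and of 4.87 and 4.60 at 72 HAI, where 2 and 3 of the 5 were above noise. Their summed log2 levels lay between 55.2 and 55.6 in polysomal and between 56.6 and 57.1 in total dry-seed mRNA, and at 72 HAI between 18.5 and 33.7 and between 21.9 and 23.9. The 4 green seedling genes, RBCS1A among them, had a mean of 3.65 in polysomal and 3.78 in total dry-seed mRNA, and of 7.15 and 7.32 at 72 HAI, where 2 of the 4 were above noise on all arrays. EPR1, an endosperm gene, averaged 10.5 in polysomal and 11.2 in total dry-seed mRNA, and 4.75 and 6.96 at 72 HAI. Of the polysomal arrays at 72 HAI the third stood apart from the other two. CRA1 had 5.01, 4.52 and 7.93 on the 3 polysomal arrays at 72 HAI, CRU3 had 4.29, 3.84 and 7.50, and EPR1 had 3.89, 4.35 and 6.02, so seed and endosperm mRNAs were higher on it, while its green seedling gene RBCS1A was at 12.1 like the others. Its part was not tested, and the counts of members called in polysomal mRNA at 72 HAI are also given without it. The root hair genes EXPA7 and SHV2 were below noise in dry seeds and highest at 48 HAI. The make-up of the material thus changes along the time course, and its part in the results on the subunit genes was not tested.

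The subunit mRNAs were lowest in dry seeds or in seedlings and highest in between. The mean of the 44 tested members in polysomal mRNA was 7.37 ± 0.02 in dry seeds and 8.54 ± 0.06, 8.76 ± 0.04, 8.56 ± 0.04 and 7.87 ± 0.05 at 6, 26, 48 and 72 HAI (SD, n = 3). In total mRNA it was 7.36 ± 0.02, 8.32 ± 0.01, 8.44 ± 0.03, 8.10 ± 0.08 and 7.53 ± 0.09 at the same time points. The median of all genes tested stayed between 5.33 and 5.60 in the 10 groups. In polysomal mRNA 13 members had their highest mean at 6 HAI, 20 at 26 HAI and 11 at 48 HAI, and in total mRNA 18, 23 and 3, so no member was highest in dry seeds or at 72 HAI. The lowest mean fell in dry seeds for 33 members and at 72 HAI for 11 in polysomal mRNA, and for 25 and 19 in total mRNA.

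**Figure D1:**
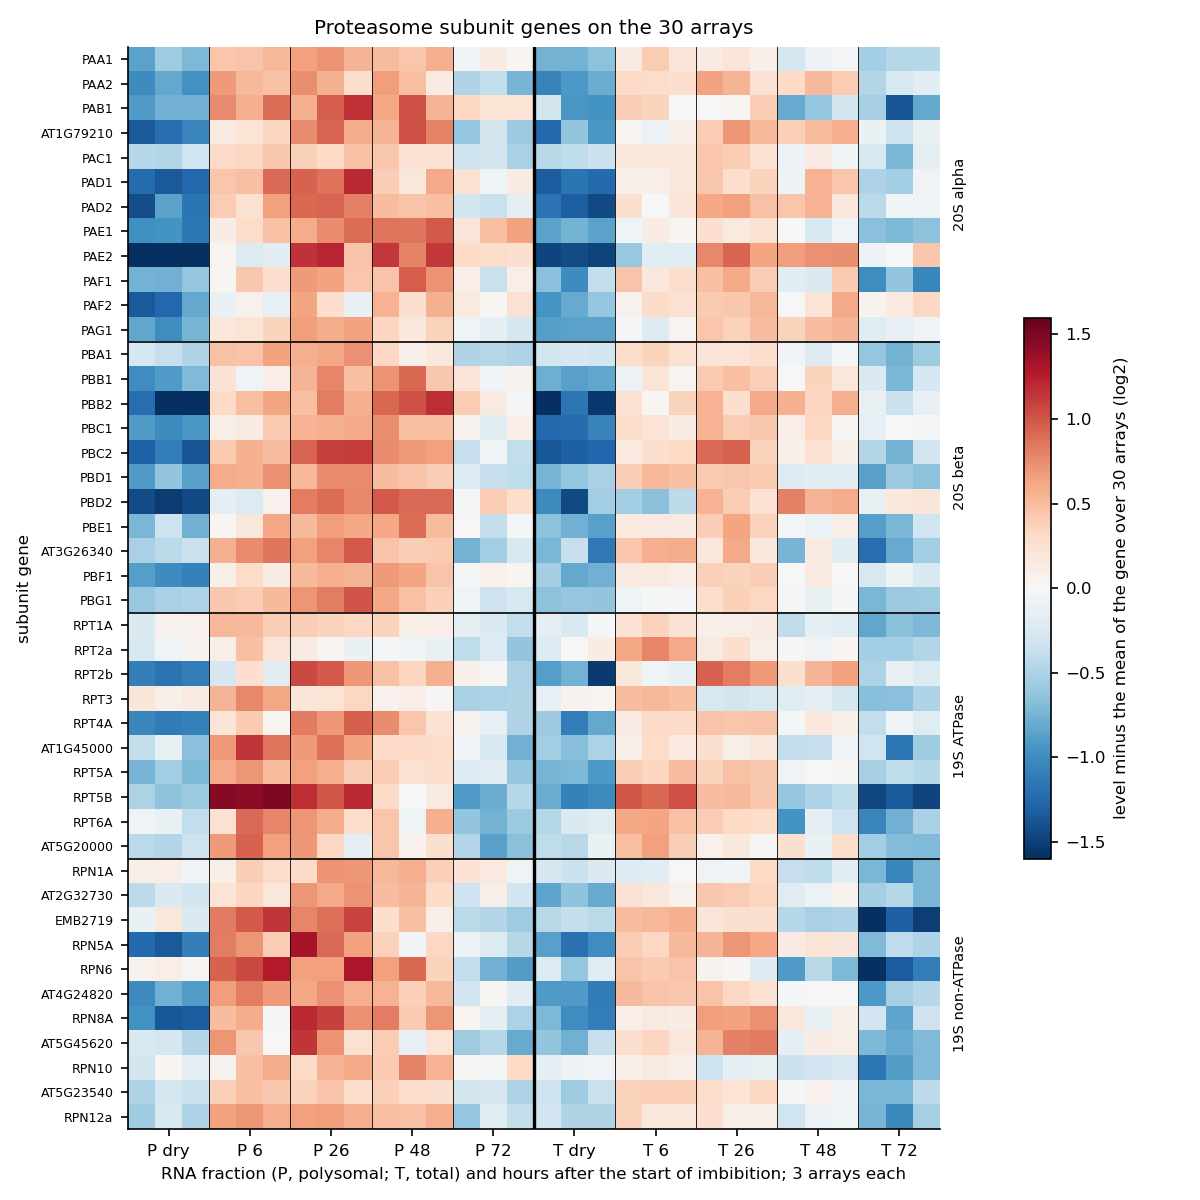
Level of the 44 tested subunit genes (rows, by class) on the 30 arrays (columns, 3 replicates for each fraction and time point, polysomal left of total), as the log2 level minus the mean of the gene over the 30 arrays; colours end at 1.6 in either direction. For most genes the dry-seed columns are blue and the columns at 6 and 26 HAI red, and for most 19S genes the 72 HAI columns are blue.

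**Figure D2:**
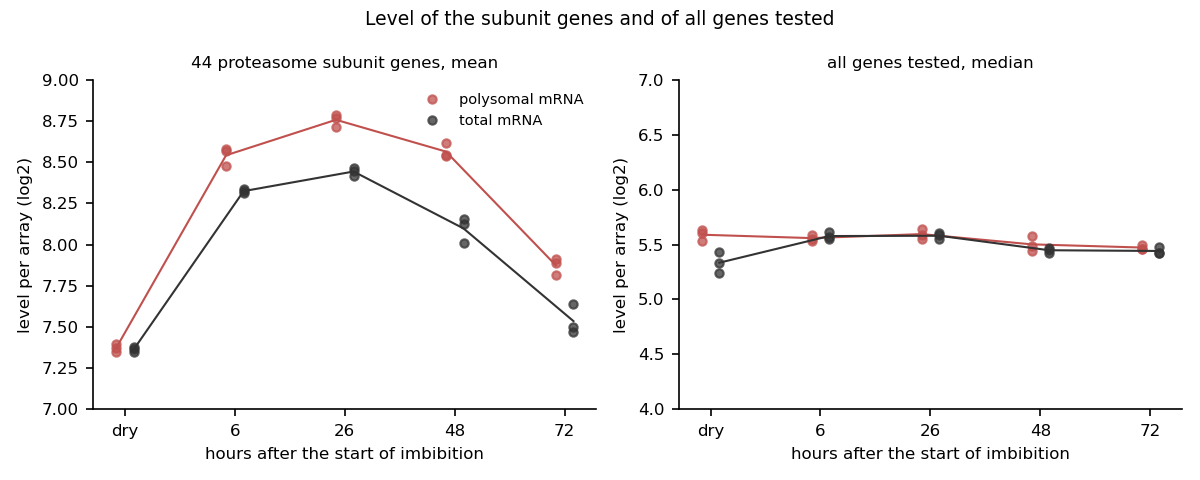
Left, mean log2 level of the 44 tested subunit genes on each array by time after the start of imbibition; right, median log2 level of the 17061 genes tested. Points are arrays and lines join group means, red for polysomal and black for total mRNA; the subunit mean of polysomal mRNA is 7.37 in dry seeds and 8.76 at 26 HAI, and the group means of the median of all genes tested stay between 5.33 and 5.60.

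AT4G15165, counted in the alpha class, is the member that was not tested. Its levels lay between 1.86 and 2.82 on the 15 polysomal arrays and between 1.48 and 2.74 on the 15 total arrays. It was below the noise level on every array, and no change is given for it.

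In the first interval the levels of the subunit mRNAs at 6 HAI were compared with those in dry seeds. These levels do not tell stored from newly made mRNA. All 44 members had a higher mean at 6 HAI than in dry seeds in both fractions, and this held for 44 of 44 with equal array medians and with a further quantile normalization. In polysomal mRNA 29 of 44 were called upregulated, against 16.9% of all genes tested, and in total mRNA 16 of 44, against 16.8%. None was called downregulated, against 15.1% and 9.93%. At an adjusted p below 0.05 without the 2-fold limit, 43 rose in polysomal mRNA (32.5% of all genes) and 42 in total mRNA (34.2%). The median change of the members was 1.16 in polysomal and 0.94 in total mRNA, against 0.08 and 0.10 over all genes tested.

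Among the alpha genes PAD2 had the largest change in total mRNA, with 8.77, 8.51 and 8.71 at 6 HAI against 7.33, 7.19 and 7.07 in dry seeds, an increase of 1.47 (SE 0.15, adjusted p = 5.15e-09). PAC1 had the smallest, with 8.71, 8.71 and 8.70 at 6 HAI against 8.09, 8.12 and 8.19 in dry seeds, an increase of 0.57 (SE 0.13, adjusted p = 0.000557). Neither gene's 6 HAI arrays overlapped those of dry seeds. In polysomal mRNA PAD2 rose by 1.58 and PAC1 by 0.77. In total mRNA 4 of the 12 alpha genes were called upregulated and in polysomal mRNA 10 of 12, with class medians of 0.98 in total and 1.38 in polysomal mRNA.

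Of the beta genes PBB2, a gene of the subunit with trypsin-like activity, stood highest in its change, with 8.11, 7.90 and 8.21 in total mRNA at 6 HAI against 5.79, 6.71 and 6.32 in dry seeds. The increase of 1.80 (SE 0.20, adjusted p = 2.65e-08) is 3.49-fold, and its polysomal mRNA rose by 2.18. PBD2 stood lowest, with 6.45, 6.33 and 6.58 at 6 HAI against 5.98, 5.55 and 6.44 in dry seeds, an increase of 0.46 (SE 0.17, adjusted p = 0.0195). One dry-seed array of PBD2 lay inside the range at 6 HAI in total mRNA. In polysomal mRNA PBD2 had 6.85, 6.78 and 7.06 at 6 HAI against 5.57, 5.48 and 5.55 in dry seeds and rose by 1.37 (adjusted p = 8.39e-08), with no overlap. All 11 beta genes passed the adjusted p in both fractions, and 7 were called in polysomal and 5 in total mRNA.

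In the ATPase ring RPT5B changed most of all members in total mRNA, with 7.67, 7.59 and 7.70 at 6 HAI against 5.88, 5.59 and 5.65 in dry seeds. The increase was 1.94 (SE 0.13, adjusted p = 1.18e-12), or 3.85-fold, and 2.05 in polysomal mRNA. RPT1A changed least in its class, with 9.24, 9.37 and 9.23 at 6 HAI against 8.85, 8.76 and 8.98 in dry seeds, an increase of 0.42 (SE 0.12, adjusted p = 0.00419). The arrays of both time points were apart for both genes. All 10 ATPase genes passed the adjusted p in both fractions, 6 of them called in polysomal and 4 in total mRNA.

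Among the non-ATPase genes AT4G24820 had 9.52, 9.45 and 9.43 in total mRNA at 6 HAI against 8.09, 8.09 and 7.87 in dry seeds, an increase of 1.45 (SE 0.13, adjusted p = 4.03e-10). RPN1A, a large scaffold subunit of the 19S base, had 8.97, 9.004 and 9.18 at 6 HAI against 8.91, 8.83 and 8.94 in dry seeds and did not pass the test (0.16, SE 0.14, adjusted p = 0.358). RPN10, a receptor for ubiquitin chains that in Arabidopsis is known from mutants with a strong abscisic acid response, was the other member that missed it in total mRNA, with 8.89, 8.93 and 8.87 at 6 HAI against 8.63, 8.71 and 8.73 in dry seeds (0.21, SE 0.15, adjusted p = 0.252). The RPN10 arrays did not overlap, but the difference was small beside the error of the fit. In polysomal mRNA RPN1A alone of the 44 missed the adjusted p, with a change of 0.22 (adjusted p = 0.194). Of the 11 non-ATPase genes 6 were called in polysomal and 3 in total mRNA.

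**Figure D3:**
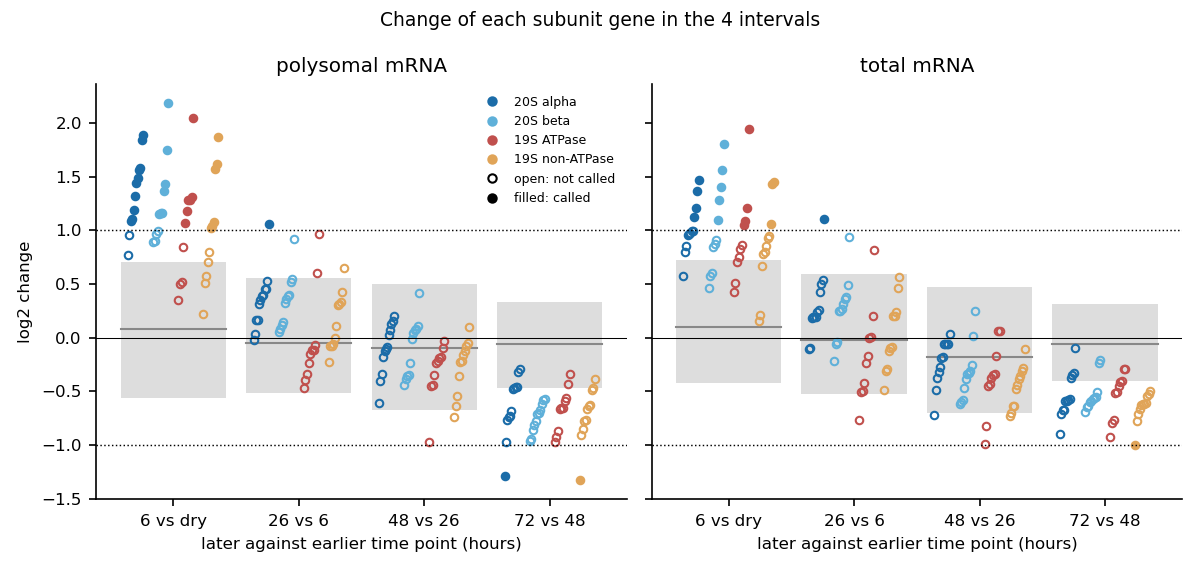
Log2 change of each tested subunit gene (points, coloured by class) in the 4 intervals, the later against the earlier time point, in polysomal mRNA (left) and total mRNA (right). Filled points are called, dotted lines mark a 2-fold change, and the grey box and line give the quartiles and median of the 17061 genes tested; every point lies above 0 at 6 HAI against dry seeds and below 0 at 72 against 48 HAI.

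Between 6 and 26 HAI, when the testa begins to break, the class medians differed, with no test made between classes. PAE2, an alpha gene, was the member called upregulated in either fraction, 1 of 44 against 14.7% of all genes tested in polysomal and 15.5% in total mRNA, and none was called downregulated (9.77% and 10.2%). With the adjusted p alone 16 rose and 3 fell in polysomal mRNA (27.2% and 26.6% of all genes) and 11 rose and 5 fell in total mRNA (27.7% and 27.1%). The median change was 0.23 in polysomal and 0.19 in total mRNA, against −0.05 and −0.02 over all genes tested, and it was −0.03 and −0.12 with equal array medians. The ATPase medians were −0.14 in polysomal and −0.20 in total mRNA, and those of the non-ATPase class 0.11 and −0.09. The alpha medians were 0.37 and 0.21 and the beta medians 0.36 and 0.27. With equal array medians the alpha and beta medians of total mRNA were below 0 too (−0.09 and −0.04).

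PAE2 had 6.85, 7.01 and 6.71 in total mRNA at 26 HAI against 5.48, 5.89 and 5.89 at 6 HAI, an increase of 1.10 (SE 0.18, adjusted p = 1.36e-05), and 7.24, 7.31 and 6.54 against 6.13, 5.87 and 5.90 in polysomal mRNA, an increase of 1.06 (adjusted p = 2.39e-05). With equal array medians both changes were 0.80 and not called, without the first array of total mRNA at 6 HAI the change in total mRNA was 0.97, and without the first or second polysomal array at 26 HAI that in polysomal mRNA was 0.96 or 0.92. PAA1, lowest of the alpha class, had 8.65, 8.73 and 8.60 at 26 HAI against 8.66, 8.93 and 8.72 at 6 HAI, and the 2 sets of arrays overlapped (−0.11, SE 0.11, adjusted p = 0.446). In the beta class PBD2 rose, with 7.55, 7.40 and 7.23 at 26 HAI against 6.45, 6.33 and 6.58 at 6 HAI (0.94, SE 0.17, adjusted p = 2.95e-05). AT3G26340 had 6.26, 6.69 and 6.25 at 26 HAI against 6.51, 6.65 and 6.67 at 6 HAI, with overlap (−0.21, SE 0.21, adjusted p = 0.394).

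The ATPase genes held both directions. RPT2b rose, with 7.84, 7.71 and 7.57 in total mRNA at 26 HAI against 7.06, 6.82 and 6.78 at 6 HAI (0.82, SE 0.19, adjusted p = 0.000618). RPT3 fell, with 8.66, 8.64 and 8.67 at 26 HAI against 9.42, 9.46 and 9.40 at 6 HAI (−0.77, SE 0.10, adjusted p = 6.46e-07), and with equal array medians the fall was −1.08 and called. In polysomal mRNA RPT2b rose by 0.97 and RPT3 fell by 0.40, and no arrays of the 2 time points overlapped for either gene in total mRNA. RPN8A, a lid subunit, had 8.41, 8.39 and 8.48 at 26 HAI against 7.85, 7.88 and 7.87 at 6 HAI and rose by 0.56 (SE 0.18, adjusted p = 0.0113). RPN6, which ties the lid to the base and the core in yeast, had 8.37, 8.34 and 8.11 at 26 HAI against 8.78, 8.73 and 8.78 at 6 HAI and fell (−0.49, SE 0.19, adjusted p = 0.0279).

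From 26 to 48 HAI, the interval of radicle protrusion, changes were small. No member was called in either direction, against 14% and 15.3% of all genes tested called upregulated in polysomal and total mRNA and 14.6% and 14.9% called downregulated. In total mRNA 28 members fell with the adjusted p alone (36.4% of all genes) and in polysomal mRNA 12 (33.5%), and none rose (24.9% and 25.9%). The median change was −0.18 in polysomal and −0.34 in total mRNA, against −0.10 and −0.18 over all genes tested.

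RPT5B fell most, with 6.05, 6.18 and 6.27 in total mRNA at 48 HAI against 7.17, 7.19 and 7.11 at 26 HAI, a change just inside the 2-fold limit (−0.99, SE 0.13, adjusted p = 2.1e-07). In polysomal mRNA it fell by 0.98, and its arrays did not overlap. With equal array medians it was called in both fractions, as it was without the third array of total mRNA at 26 or 48 HAI (−1.02 and −1.04) and without the second polysomal array at 26 HAI or the first at 48 HAI (−1.04 and −1.05). EMB2719 had 8.10, 8.04 and 8.06 at 48 HAI against 8.76, 8.81 and 8.81 at 26 HAI in total mRNA (−0.73, SE 0.13, adjusted p = 3.63e-05). PAB1, an alpha gene, had 6.23, 6.41 and 6.74 at 48 HAI against 7.04, 7.07 and 7.45 at 26 HAI (−0.72, SE 0.21, adjusted p = 0.00414). In the beta class PBD1 had 9.22, 9.25 and 9.25 at 48 HAI against 9.85, 9.86 and 9.86 at 26 HAI (−0.62, SE 0.12, adjusted p = 5.71e-05). All of these genes fell in total mRNA with no overlap, whereas in polysomal mRNA the changes of PAB1 (−0.18) and PBD1 (−0.23) did not pass the test.

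At the other end of the classes no change in total mRNA passed the test. PAG1, an alpha gene, had 9.68, 9.82 and 9.87 in total mRNA at 48 HAI against 9.76, 9.69 and 9.82 at 26 HAI (0.03, adjusted p = 0.831), and PBD2 had 7.80, 7.53 and 7.59 against 7.55, 7.40 and 7.23 (0.25, adjusted p = 0.197). RPT3 had 8.74, 8.77 and 8.65 at 48 HAI against 8.66, 8.64 and 8.67 at 26 HAI (0.06, adjusted p = 0.624), and RPN10 had 8.44, 8.49 and 8.53 against 8.46, 8.64 and 8.67 (−0.10, adjusted p = 0.572). The arrays of both time points overlapped for each of these 4 genes. With equal array medians the sign turned for PAG1 (−0.14) and RPT3 (−0.10). In polysomal mRNA PAG1 fell, with 9.67, 9.50 and 9.70 at 48 HAI against 9.998, 9.92 and 9.97 at 26 HAI (−0.34, adjusted p = 0.0111).

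From 48 to 72 HAI, as the seedlings turned green, all 44 members had a lower mean at 72 HAI in both fractions, also with equal array medians and after quantile normalization. At the adjusted p alone 41 fell in polysomal mRNA, against 23.6% of all genes tested, and 37 in total mRNA, against 19.7%, and none rose (16.6% and 15.4%). Few changes reached 2-fold. RPN6 and AT1G79210 were called downregulated in polysomal mRNA (2 of 44, against 7.34% of all genes) and EMB2719 in total mRNA (1 of 44, against 5.37%), with none called upregulated (6.52% and 6.64%). The median change was −0.67 in polysomal and −0.58 in total mRNA, against −0.06 over all genes tested in each.

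EMB2719 had 6.89, 7.26 and 7.05 in total mRNA at 72 HAI against 8.10, 8.04 and 8.06 at 48 HAI, with no overlap (−1.005, SE 0.13, adjusted p = 1.28e-06). Its call was lost without the first array at 48 HAI (−0.99) or the first at 72 HAI (−0.92), also without the third at 72 HAI, and after quantile normalization (−0.89). RPN6 had 7.93, 7.56 and 7.43 in polysomal mRNA at 72 HAI against 8.98, 9.24 and 8.67 at 48 HAI and fell by 1.33. AT1G79210, counted in the alpha class, had 6.21, 6.54 and 6.24 at 72 HAI against 7.37, 7.85 and 7.63 at 48 HAI and fell by 1.29. Neither set overlapped. With equal array medians 5 members were called downregulated in polysomal mRNA. Without single polysomal arrays it was 2 to 5, with 4 without the second at 48 HAI or the first or the third at 72 HAI and 5 without the second at 72 HAI. Without the third array at 72 HAI RPN6 fell by 1.22 and AT1G79210 by 1.24. AT2G32730, with the smallest fall of the non-ATPase class in total mRNA, had 7.59, 7.68 and 7.40 at 72 HAI against 7.94, 8.05 and 8.19 at 48 HAI (−0.50, SE 0.13, adjusted p = 0.00292), so all 11 genes of that class passed the adjusted p.

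PAF1, an alpha gene, had 5.55, 5.92 and 5.50 in total mRNA at 72 HAI against 6.36, 6.32 and 6.97 at 48 HAI (−0.90, SE 0.19, adjusted p = 0.000473). PAF2, the other gene of its subunit, had 7.27, 7.37 and 7.55 at 72 HAI against 7.22, 7.44 and 7.83 at 48 HAI (−0.10, SE 0.18, adjusted p = 0.704), and without the third array of total mRNA at 48 HAI its change was 0.07. The arrays of PAF1 were apart and those of PAF2 overlapped. PBB2 had 7.74, 7.52 and 7.73 at 72 HAI against 8.43, 8.21 and 8.44 at 48 HAI (−0.70, SE 0.20, adjusted p = 0.0085). PBC1, lowest in the size of its change among the beta genes, had 8.62, 8.76 and 8.71 against 8.85, 9.08 and 8.78 (−0.21, SE 0.12, adjusted p = 0.21). Of these genes PBC1 had no overlap either but missed the test in total mRNA, and its polysomal mRNA fell (−0.58, adjusted p = 0.000546).

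RPT5B fell again, with 5.21, 5.33 and 5.19 in total mRNA at 72 HAI against 6.05, 6.18 and 6.27 at 48 HAI (−0.92, SE 0.13, adjusted p = 2.08e-06). RPT4A had 7.50, 7.85 and 7.70 at 72 HAI against 7.87, 8.07 and 7.99 at 48 HAI (−0.29, SE 0.16, adjusted p = 0.158), and its polysomal mRNA fell (−0.66, adjusted p = 0.00134). For both genes the arrays of total mRNA at the 2 time points did not overlap.

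Measured against dry seeds, most subunit genes were above the dry level at 26 HAI, and the classes differed in how much of this was left at 72 HAI. At 26 HAI 32 of 44 members were called upregulated in polysomal mRNA (27.9% of all genes tested) and 27 in total mRNA (29.2%), with medians of 1.39 and 1.18 against 0.07 and 0.19 over all genes. At 48 HAI it was 25 (31.3%) and 13 (33.7%), with medians of 1.24 and 0.69. At 72 HAI it was 9 (30.2%) and 5 (33%), with medians of 0.47 and 0.13 against −0.14 and 0.06 over all genes, and none (31.1%) and 2 (27.1%) were called downregulated. With equal array medians the upregulated counts in total mRNA were 15, 6 and 1 at the 3 time points, 8 were called downregulated at 72 HAI, and the median of the members there turned to −0.40. In polysomal mRNA at 72 HAI equal array medians gave 4 upregulated and 2 downregulated with a median of 0.03, and without the third polysomal array 13 were upregulated and none downregulated, with a median of 0.50. With the adjusted p alone, 42 and 39 were above dry seeds at 26 HAI in polysomal and total mRNA (39.8% and 42.2% of all genes) and 0 and 1 below (33.8% and 30.4%). At 72 HAI 26 and 19 were above (38.7% and 42.6%) and 5 and 11 below (43.4% and 39.2%). None was called downregulated at 26 or 48 HAI in either fraction, against 23% and 28.4% of all genes in polysomal and 19.1% and 25.3% in total mRNA.

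The mean of the 23 tested core genes of the 20S particle exceeded its dry-seed value by 1.31 in polysomal and 1.03 in total mRNA at 6 HAI, and that of the 21 genes of the 19S particle by 1.02 and 0.89. At 26 HAI the excess was 1.67 and 1.32 for the core and 1.08 and 0.83 for the 19S genes, and at 48 HAI 1.56 and 1.04 against 0.79 and 0.40. At 72 HAI the core genes still averaged 0.87 and 0.51 above dry seeds, and the 19S genes 0.10 above in polysomal and 0.19 below in total mRNA (difference −0.19). The gap between the core and 19S means does not depend on the array medians, but the sign of some class medians does. Against dry seeds all class medians stayed above 0 at 6 and 26 HAI with equal array medians. In polysomal mRNA at 72 HAI they were then 0.38 for alpha, 0.50 for beta, −0.62 for ATPase and −0.38 for non-ATPase genes. The RMA values there were 0.82, 0.94, −0.18 and 0.06. With equal array medians the class medians in total mRNA at 72 HAI were 0.16 for alpha, −0.12 for beta, −0.93 for ATPase and −0.74 for non-ATPase genes, in place of 0.68, 0.41, −0.40 and −0.21. No test was made between the classes, whose members were not drawn as replicates.

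At 72 HAI the 5 genes called upregulated in total mRNA were all core genes. PAE2 had 6.00, 6.10 and 6.53 at 72 HAI against 4.62, 4.66 and 4.60 in dry seeds (1.58, SE 0.18, adjusted p = 1.4e-08), and PBB2 had 7.74, 7.52 and 7.73 against 5.79, 6.71 and 6.32 (1.39, adjusted p = 6.18e-07). PAD2, PBC1 and PBD2 rose by 1.14, 1.13 and 1.09. The 2 called downregulated were 19S genes. EMB2719 had 6.89, 7.26 and 7.05 at 72 HAI against 8.11, 8.17 and 8.12 in dry seeds (−1.07, SE 0.13, adjusted p = 3.67e-08), and RPN6 had 6.70, 6.99 and 7.21 against 8.10, 7.71 and 8.13 (−1.01, SE 0.19). Without the first array of total mRNA at 72 HAI neither was called (−0.98 and −0.88), nor was either after quantile normalization, and PBD2 was not called without the second dry-seed array (0.87). The arrays of both time points did not overlap for any of these 4 genes with values given.

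Arabidopsis keeps pairs of genes for many proteasome subunits, and for 13 such pairs both genes were among the tested members. Pairs with a gene outside the members, such as RPN1A with RPN1B and RPN5A with RPN5B, were not compared. For each pair the difference between its genes on each array was compared between time points with a two-sided exact permutation test, whose smallest p with 3 arrays against 3 is 0.1. In polysomal mRNA 7 pairs reached it at 26 HAI and 10 at 72 HAI against dry seeds, and in total mRNA 7 and 9. After Benjamini-Hochberg adjustment over the 13 pairs these p were 0.186, 0.13, 0.186 and 0.144, so no pair passed, nor could it at this number of arrays. The pairs below are given by their own changes, and probes that match both genes of a pair could make them look more alike.

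Among these pairs of members, the RPT2 pair differed most at 26 HAI. RPT2a and RPT2b encode the same ATPase subunit. RPT2b had 7.84, 7.71 and 7.57 in total mRNA at 26 HAI against 6.01, 6.14 and 5.36 in dry seeds, an increase of 1.87. RPT2a had 8.60, 8.73 and 8.55 at 26 HAI against 8.24, 8.47 and 8.58 in dry seeds (0.20, not past the test), and with equal array medians −0.11. RPT2b did not overlap and RPT2a did. In polysomal mRNA the changes were 2.04 for RPT2b and 0.11 for RPT2a, which was −0.19 with equal array medians and −0.02 after quantile normalization.

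PAE2 had 6.85, 7.01 and 6.71 in total mRNA at 26 HAI against 4.62, 4.66 and 4.60 in dry seeds, an increase of 2.23 (SE 0.18, adjusted p = 3.02e-11) or 4.70-fold. PAE1 had 8.78, 8.66 and 8.75 against 7.65, 7.75 and 7.65, an increase of 1.05. In polysomal mRNA PAE2 had 7.24, 7.31 and 6.54 at 26 HAI against 4.21, 3.79 and 4.38 in dry seeds, where not all arrays were above the noise level, so no fold is given. PBB2 rose by 2.07 and PBB1 by 1.25 in total mRNA. All of these arrays were apart, and in total mRNA PAE2 and PBB2 changed more than the other gene of their pair.

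At 72 HAI the genes of some pairs differed in where they stood against the dry level in total mRNA. PAF2 had 7.27, 7.37 and 7.55 at 72 HAI against 6.27, 6.41 and 6.60 in dry seeds (0.97), and PAF1 had 5.55, 5.92 and 5.50 against 5.88, 5.54 and 6.16, with overlap (−0.20). PBD2 had 6.87, 7.17 and 7.19 against 5.98, 5.55 and 6.44 (1.09), and PBD1 had 8.57, 8.85 and 8.78 against 8.69, 8.81 and 8.92, with overlap (−0.07, and 0.01 without the first array of total mRNA at 72 HAI). RPT5A had 8.20, 8.33 and 8.28 against 7.99, 8.02 and 7.82 (0.33, and −0.20 with equal array medians), and RPT5B had 5.21, 5.33 and 5.19 against 5.88, 5.59 and 5.65 (−0.47). PAF2, PBD2 and RPT5A were thus above dry seeds without overlap and RPT5B below.

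Other pairs had closer changes at 26 HAI. RPT6A and AT5G20000, which lie next to each other in the genome, changed by 0.63 and 0.40 in total and by 0.73 and 0.71 in polysomal mRNA at 26 HAI against dry seeds. PAD1 and PAD2 changed by 1.61 and 1.90 in total and by 2.28 and 2.04 in polysomal mRNA. PBE1, a gene of the subunit with chymotrypsin-like activity, and AT3G26340 changed by 1.23 and 1.07 in total and by 1.21 and 1.24 in polysomal mRNA. At 72 HAI in polysomal mRNA PAD1 and PAD2 changed by 1.38 and 0.89 against dry seeds and PBE1 and AT3G26340 by 0.47 and −0.08, each difference at the smallest exact p of 0.1.

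**Figure D4:**
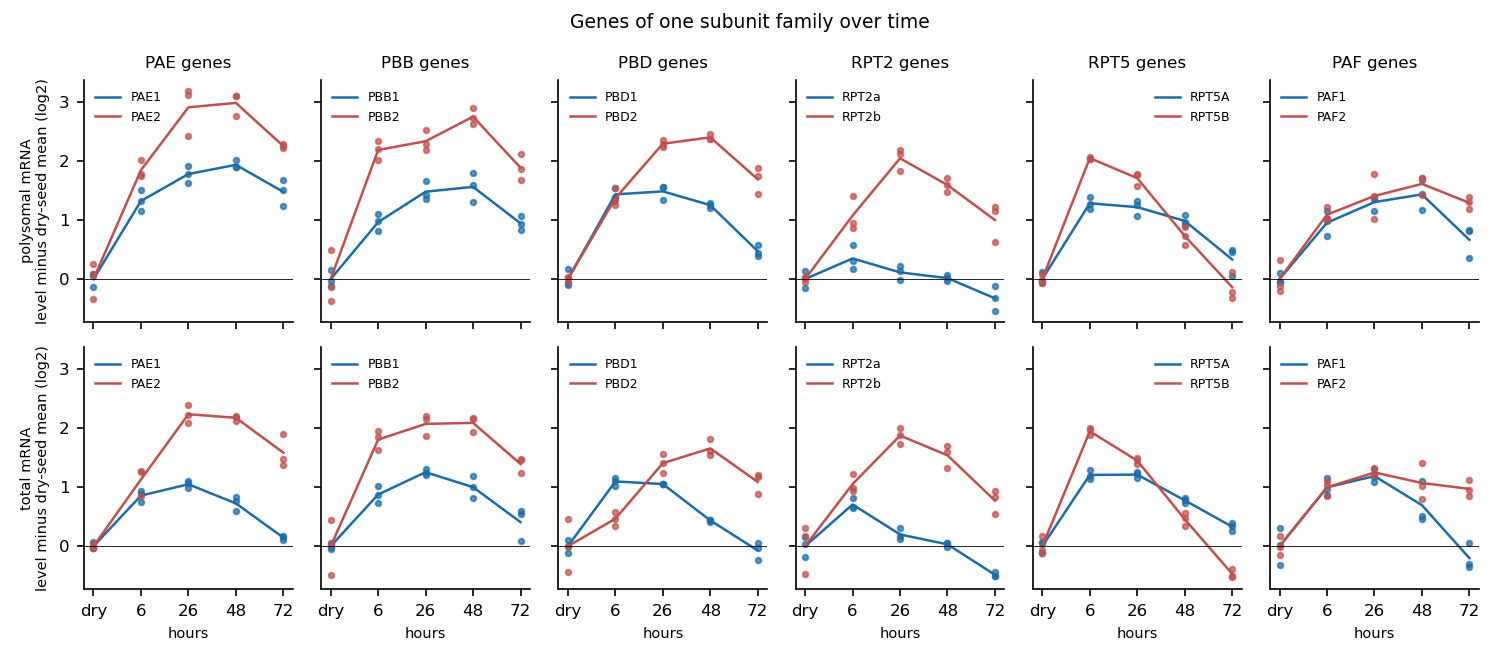
Log2 level minus the dry-seed mean of the same fraction against hours after the start of imbibition for 6 gene pairs, polysomal mRNA above and total mRNA below; points are arrays and lines join group means. RPT2b and RPT2a are at 1.87 and 0.20 in total mRNA at 26 HAI (RPT2a −0.11 with equal array medians), PAE2 and PAE1 at 2.23 and 1.05, and RPT5A and RPT5B cross between 26 and 72 HAI.

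Polysome occupancy is the log2 ratio of the polysomal to the total level of an mRNA, which after RMA has meaning only beside that of other mRNAs. In dry seeds it was near 0, with a median of −0.01 over the members against 0.09 over all genes tested. The median was 0.23, 0.29, 0.50 and 0.29 at 6, 26, 48 and 72 HAI, against 0.06, 0.05, 0.10 and 0.07 over all genes. After quantile normalization the members' medians were −0.11, 0.17, 0.23, 0.36 and 0.23 from dry seeds to 72 HAI. No member was called in dry seeds (2.69% of all genes called higher), at 6 HAI (1.26%) or at 26 HAI (0.697%), 3 were called higher at 48 HAI (3.7%) and 4 at 72 HAI (4.26%). None was called lower at any time point, where 0.697%, 2.71%, 2.79%, 6.4% and 7.56% of all genes were. With the adjusted p alone, 3, 9, 14, 30 and 18 members were higher from dry seeds to 72 HAI (15.7%, 11.1%, 11%, 22.5% and 22.6% of all genes).

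The members called were PAB1, PAE1 and RPN6 at 48 HAI and PAB1, PAE1, EMB2719 and RPN10 at 72 HAI. PAB1 had 7.65, 8.06 and 7.58 in polysomal mRNA at 48 HAI against 6.23, 6.41 and 6.74 in total mRNA, an occupancy of 1.30 (SE 0.21, adjusted p = 3.06e-05), and at 72 HAI 7.37, 7.25 and 7.26 against 6.50, 5.67 and 6.21, an occupancy of 1.16 (adjusted p = 9.45e-05). PAE1 had 9.37, 9.37 and 9.50 in polysomal mRNA at 48 HAI against 8.51, 8.27 and 8.44 in total mRNA (1.003, adjusted p = 1.32e-06), and at 72 HAI 8.72, 8.99 and 9.15 against 7.84, 7.80 and 7.86 (1.12, adjusted p = 1.57e-07). In both alpha genes the polysomal arrays lay above all total arrays at both time points.

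RPN6 had 8.98, 9.24 and 8.67 in polysomal mRNA at 48 HAI against 7.42, 7.88 and 7.60 in total mRNA, an occupancy of 1.33 (SE 0.19, adjusted p = 5.64e-06), the highest of the members. EMB2719 had 8.13, 8.09 and 7.98 in polysomal mRNA at 72 HAI against 6.89, 7.26 and 7.05 in total mRNA (1.002, adjusted p = 1.58e-06). RPN10 had 8.80, 8.76 and 9.10 against 7.63, 7.90 and 8.08 (1.02, adjusted p = 7.86e-06). The fractions did not overlap in any of the 3 genes, but the calls of EMB2719 and RPN10 lie at the 2-fold limit and were lost after quantile normalization (0.92 and 0.90), as was that of PAE1 at 48 HAI (0.84). Without single arrays 2 to 4 members were called at 72 HAI, with 2 left without the first array of total mRNA at 72 HAI, and PAB1 was not called without the second (0.94). Without the third polysomal array at 72 HAI 4 were called, RPN10 not among them (0.91). PAB1, PAE1 and EMB2719 were then at 1.18, 1.03 and 1.04. RPN1A was the fourth, with 9.41 and 9.34 on the remaining polysomal arrays against 8.44, 8.14 and 8.45 in total mRNA. Over all arrays its occupancy at 72 HAI was 0.94 and not called.

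A 4-group contrast compared the occupancy of each time point with that of the one before, and no member was called in any of the 4 intervals. Of all genes tested 2.17%, 0%, 1.1% and 0.0645% were called higher and 7.05%, 0.0234%, 3.3% and 0.141% lower from the first interval to the fourth. PBD2 alone passed the adjusted p, with an increase of 0.90 between dry seeds and 6 HAI, and 1 member was called there after quantile normalization. From dry seeds to 72 HAI 3 members were called, PAE1 (1.33, SE 0.18, adjusted p = 8.26e-06), PAB1 (1.25, SE 0.30, adjusted p = 0.00346) and RPN10 (1.06, SE 0.21, adjusted p = 0.000869), against 4.28% of all genes called higher, and none was called lower (9.13%). Without the third polysomal array at 72 HAI PAE1 (1.23) and PAB1 (1.27) were called and RPN10 (0.95) was not. In dry seeds their polysomal arrays were 7.53, 7.56 and 7.35 for PAE1, 6.13, 6.26 and 6.27 for PAB1 and 8.50, 8.82 and 8.64 for RPN10, against 7.65, 7.75 and 7.65, 6.75, 6.11 and 6.08, and 8.63, 8.71 and 8.73 in total mRNA. In dry seeds the fractions thus overlapped for PAB1 and RPN10, and for PAE1 polysomal mRNA lay below total mRNA.

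**Figure D5:**
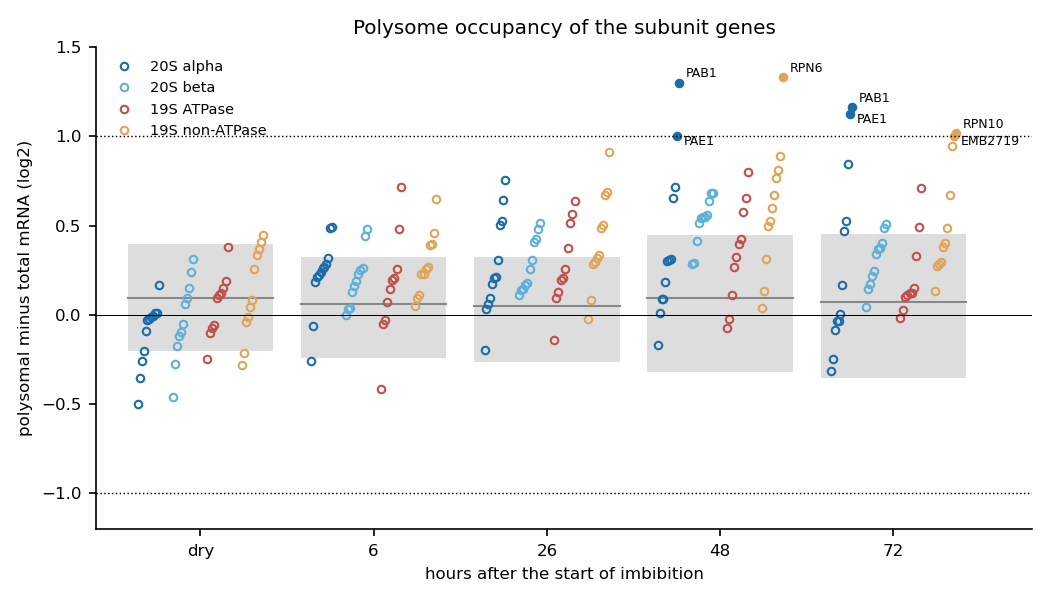
Polysome occupancy (polysomal minus total mRNA, log2) of each tested subunit gene by time after the start of imbibition, coloured by class, with filled and named points for genes called; the grey box and line give the quartiles and median of all genes tested. The members' median is −0.01 in dry seeds and 0.50 at 48 HAI, where PAB1, PAE1 and RPN6 are called.

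The members shared a time course to different degrees. Over the 10 group means, each gene's correlation with the mean of the other members had a median of 0.895, and 32 of 44 were above 0.8, against 6.97% of all genes tested. AT4G24820 (0.981), PBC2 (0.974) and PBE1 (0.974) were most like the rest, and RPT3 (0.432) and RPT2a (0.486) least. These are descriptions over 10 groups that share their time points, with no test. In total mRNA RPT3 averaged 8.92 in dry seeds and 9.43, 8.66, 8.72 and 8.31 at 6, 26, 48 and 72 HAI, so its rise at 6 HAI was gone at 26 HAI. AT4G24820 averaged 8.02 in dry seeds and 9.46, 9.34, 8.99 and 8.36 later.

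The other genes of the pathway were 41 from a list of further subunit genes, assembly factors, ubiquitin genes, E1 enzymes, shuttle proteins, deubiquitinases and transcription factors, of which 40 were tested. Between dry seeds and 6 HAI 13 of 40 were called upregulated and 3 downregulated in polysomal mRNA, against 16.9% and 15.1% of all genes tested, and 12 and 1 in total mRNA, against 16.8% and 9.93%, with medians of 0.68 and 0.42. Between 6 and 26 HAI 2 were upregulated and 3 downregulated in polysomal mRNA (14.7% and 9.77% of all genes), and 3 and 4 in total mRNA (15.5% and 10.2%). From 26 to 48 HAI it was 0 and 4 in polysomal mRNA (14% and 14.6%) and 0 and 8 in total mRNA (15.3% and 14.9%). From 48 to 72 HAI it was 0 and 0 in polysomal mRNA (6.52% and 7.34%) and 0 and 1 in total mRNA (6.64% and 5.37%). At 72 HAI against dry seeds it was 8 and 8 in polysomal mRNA (30.2% and 31.1% of all genes). In total mRNA it was 7 and 16 (33% and 27.1%). Their correlation with the mean of the members was above 0.8 for 12 of 40, among them the further subunit genes AT4G19006 (0.984), RPN1B (0.911) and the ubiquitin receptor RPN13 (0.834).

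The transcription factors known to activate proteasome genes under proteasome stress in Arabidopsis, NAC053 and NAC078, differed. NAC053 rose between dry seeds and 6 HAI, by 1.29 in polysomal and 1.45 in total mRNA (adjusted p = 1.3e-07 and 2.1e-08), and fell between 26 and 48 HAI by 1.12 and 1.07. NAC078 changed by 0.09 and 0.08 in the first interval (adjusted p = 0.579 and 0.63), and at 72 HAI it was called downregulated against dry seeds (−1.40 and −1.70). NAC053 was among the 12 genes with a correlation above 0.8 (0.845), and NAC078 was at 0.06.

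Some pathway genes fell between dry seeds and 6 HAI, when the subunit genes rose, or were below dry seeds at 72 HAI. AT1G53780, a further subunit gene of the list, averaged 5.22 ± 0.22 in polysomal mRNA at 6 HAI against 8.09 ± 0.14 in dry seeds, and 5.52 ± 0.31 against 7.43 ± 0.20 in total mRNA (SD, n = 3; changes −2.87 and −1.92). The correlation of AT1G53780 with the mean of the members was −0.47, and it is not counted among the members. PA200, an activator that caps the core in place of the 19S particle, was called downregulated in polysomal mRNA in the first interval (−1.15) and not in total mRNA (−0.20, adjusted p = 0.201). At 72 HAI it was called downregulated in both against dry seeds (−2.35 and −1.85). The E1 genes UBA1 and UBA 2, whose products activate ubiquitin, were also called downregulated at 72 HAI, by −1.29 and −2.58 in polysomal and −1.51 and −2.67 in total mRNA. AT1G67250, placed among the assembly factors, rose instead, by 2.54 in polysomal and 1.38 in total mRNA at 6 HAI, and was still 2.51 and 2.41 above dry seeds at 72 HAI.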

How the data were processed

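The authors computed the log2 values they deposited by RMA (background correction, quantile normalization of probes, one signal per gene) in R with affy and the Brainarray probe set definition. The labelling kit is given as 3′ IVT Express in one source and as whole-transcript kits in another, which was not settled. Groups came from the sample labels, and every column was used. The 3 replicates per group limit the precision.

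From these values, limma 3.58.1 in R 4.3.3 fitted a mean for each of the 10 groups to the 30 arrays with empirical Bayes moderation, and the contrasts and call rule are those given above. Figures were drawn with matplotlib 3.10.9. The fit was tested on simulated data. The members, the other gene lists and the rules were chosen with earlier results of these data known, so nothing here is independent support for them. Arrays are given in full, for each interval, for the members with the highest and lowest change in total mRNA within each class, and for every member called in polysome occupancy. The values of single arrays of the members called at 72 HAI and of the gene pairs were added after their values were seen. Symbols came from the RefSeq gene table (TAIR10.1), which held 27241 of the 27827 loci and 16839 of the 17061 tested. NAC078 was found by a synonym.

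Alternatives were no noise filter, a level above 5, equal array medians, a further quantile normalization, the compared groups alone, a replicate block, an intensity trend with robust moderation, the adjusted p alone, and leaving out each array. For occupancy the replicate block was also set within each time point. No sequences were used here.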

Additional observations from a re-analysis of the deposited data

Results flagged for a closer look

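For 3 members the change in level between dry seeds and 72 HAI differed between polysomal and total mRNA, which is a change in polysome occupancy, by the contrast of 4 groups fitted with limma. PAE1 rose by 1.33 in occupancy (adjusted p = 8.26e-06), with changes against dry seeds of 1.47 in polysomal and 0.15 in total mRNA, of which the second did not pass the test. PAB1 rose by 1.25 in occupancy (adjusted p = 0.00346), with changes of 1.07 in polysomal and −0.18 in total mRNA. RPN10 rose by 1.06 in occupancy (adjusted p = 0.000869), and its call was lost after quantile normalization (0.99) and without the first array of total mRNA at 72 HAI (0.94), the first of polysomal mRNA in dry seeds (0.98) or the third of polysomal mRNA at 72 HAI (0.95). Groups of 3 arrays were not searched systematically for outlying arrays, and the third polysomal array at 72 HAI was noted from the stage markers.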

How the results depend on the processing

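No count of members called moved by over 1.5 times with no noise filter, a level above 5, the compared groups alone or an intensity trend with robust moderation. The replicate number as a block left every count as it was, for example 29 called upregulated in polysomal and 16 in total mRNA at 6 HAI against dry seeds and 3 in occupancy at 48 HAI. Of 15 pairs of polysomal and total arrays with the same time point and number, 2 deviated together at a correlation over 0.1 (range −0.0016 to 0.20). These correlations were low, so the main fit did not pair the samples by number. Pairing by number within each time point left the counts of members called in occupancy as they were, for example 3 at 48 HAI.

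Equal array medians shifted the median of all genes tested by −0.31, −0.17, −0.31, −0.48 and −0.53 in total mRNA (26 against 6, 48 against 26, and 26, 48 and 72 HAI against dry seeds), by −0.27, −0.30, −0.39 and −0.44 in polysomal mRNA (26 against 6, and 26, 48 and 72 HAI against dry seeds) and by 0.11 and 0.12 in occupancy at 48 and 72 HAI. Under it 0 members were called upregulated and 1 downregulated in total mRNA at 26 against 6 HAI, 1 downregulated at 48 against 26 HAI, and 15, 6 and 1 upregulated and 8 downregulated (the last at 72 HAI) against dry seeds. In polysomal mRNA it was 0 upregulated at 26 against 6 HAI, 1 downregulated at 48 against 26 HAI, 5 downregulated at 72 against 48 HAI, and 4 upregulated and 2 downregulated at 72 HAI against dry seeds. Among the changes given singly, signs in total mRNA turned for PAG1 (−0.14) and RPT3 (−0.10) at 48 against 26 HAI. Against dry seeds they turned for RPT2a (−0.11) at 26 HAI and RPT5A (−0.20) at 72 HAI. In polysomal mRNA they turned for PAA1 (−0.11) and AT3G26340 (−0.19) at 26 against 6 HAI, and for RPT2a at 26 HAI against dry seeds. Further members changed sign. In total mRNA 12 of 44 members were above 0 at 26 against 6 HAI, in place of 26. At 48 and 72 HAI against dry seeds it was 27 and 13, in place of 37 and 25. In polysomal mRNA at 72 HAI against dry seeds it was 23, in place of 33. Quantile normalization gave 2 upregulated at 26 against 6 HAI and 0 downregulated at 72 HAI against dry seeds in total mRNA, 16 upregulated at 72 HAI against dry seeds in polysomal mRNA, 2 in occupancy at 72 HAI and 1 in its change to 6 HAI. The cause was not tested.

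The adjusted p alone, a wider rule by construction, gave in total mRNA 42 up at 6 HAI against dry seeds, 11 up and 5 down at 26 against 6, 28 down at 48 against 26, 37 down at 72 against 48, 1 down at 26, 32 up at 48 and 19 up and 11 down at 72 HAI against dry seeds. In polysomal mRNA it gave 16 up and 3 down at 26 against 6, 12 down at 48 against 26, 41 down at 72 against 48, 41 up at 48 and 26 up and 5 down at 72 HAI against dry seeds. In occupancy it gave 3, 9, 14, 30 and 18 up from dry seeds to 72 HAI and 1 down at 6 HAI, and in its change 1 up to 6 HAI and 9 up from dry seeds to 72 HAI.

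Without single arrays the counts of total mRNA ranged from 0 to 2 upregulated at 26 against 6 HAI, 0 to 1 downregulated at 48 against 26, 0 to 2 downregulated at 72 against 48, and 4 to 6 upregulated and 0 to 2 downregulated at 72 HAI against dry seeds. Those of polysomal mRNA ranged from 0 to 2 upregulated at 26 against 6 HAI, 0 to 1 downregulated at 48 against 26, 2 to 5 downregulated at 72 against 48, and 8 to 13 upregulated at 72 HAI against dry seeds. Occupancy gave 0 to 1 at 26, 2 to 3 at 48 and 2 to 4 at 72 HAI, and its change 0 to 1 to 6 HAI and 2 to 4 from dry seeds to 72 HAI. The sign of a change near 0 turned for PAG1 at 48 against 26 HAI (−0.00882 to 0.0831) and PAF2 at 72 against 48 HAI (−0.237 to 0.0668) in total mRNA, AT3G26340 at 26 against 6 HAI (−0.00904 to 0.157) and RPN10 at 48 against 26 HAI (−0.00135 to 0.185) in polysomal mRNA, and PBD1 at 72 HAI against dry seeds in total mRNA (−0.132 to 0.0114).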
